A study of Homo sapiens with 7 samples.

Results

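The genes described here are 45 interferon-stimulated genes, taken by symbol from the gene count table of MDA-MB-231, a long-used cell line from a triple-negative breast tumour. All 45 symbols were found among the 57773 rows of that table. The series concerns APE1 (apurinic/apyrimidinic endonuclease 1, gene APEX1), a base excision repair enzyme, and its binding to G-quadruplexes. RNA-seq of 2 libraries labelled KD was set against 3 libraries labelled parent. No label spells out KD, gives its vector or says whether the KD cells are 1 clone. The treatment text shared by all samples tells of TNBC cells without APE1 into which wild-type or mutant APE1 was returned under doxycycline control, and does not say which RNA libraries, if any, were made from such cells or given doxycycline. Library totals ran from 14601078 to 18049386 counts, and the 45 genes together took 0.203% to 0.250% of them. APEX1 had 640 and 753 counts in KD and 1936, 1936 and 2413 counts in parent, which follows the labels (log2 fold change -1.51 ± 0.0727 SE, edgeR adjusted p = 5.87e-05).

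Type I interferons bind the receptor IFNAR1/IFNAR2 and act through the kinases JAK1 and TYK2 on a complex that holds STAT2 and IRF9 and binds the interferon-stimulated response element in promoters. Interferon-gamma acts through the receptor IFNGR1/IFNGR2 and leads to binding at gamma-activated sites. The genes that respond make sensors of foreign nucleic acid, transcription factors that feed back on the pathway, and proteins that block steps of virus replication, and many tumour lines express part of the set with no interferon added.

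The set split evenly in the main fit but not under several other settings, such as DESeq2's test, with 1 called higher and 5 lower. Of 45 genes, 42 had enough counts to be tested, 6 rose and 6 fell in KD, and 30 missed the threshold of 0.05 on the adjusted p of edgeR's quasi-likelihood test. Over all 16198 genes tested, 9.15% were called higher and 12.4% lower, 21.5% in all, beside 14.3% each of the 42, 28.6% in all. These shares are not far from the background, and nothing particular to the set is read from them. At an unadjusted p under 0.05 the same test had 22 of the 42, a larger share than the 35.3% of all genes that passed. No test of the set was made. The median log2 fold change was -0.06 over the 42 genes and 0.00085 over all genes. Of the falls, 4 were larger than any rise: IFI44 and IFI44L were listed at 0 in both KD libraries, as were 1.11% of all tested genes, and IFI27 and TRIM22 were 5.64-fold and 3.31-fold lower. The other falls, HERC5 and IFIH1, were 1.40-fold and 1.29-fold. The rises were 1.25-fold to 1.69-fold, in OASL, IFITM3, MX2, OAS2, ISG15 and MX1. In 13 of the 42 genes both KD libraries lay above all parent libraries, in 17 below, and in 12 the groups overlapped. Of all tested genes 25.3% lay above and 26.1% below, both smaller shares than in the set. The members were chosen with earlier results of these data known. Neither these shares nor the count at an unadjusted p is therefore read as a trait of the set. The summed level of the 45 genes was 2485 and 2235 CPM (counts scaled to the same TMM-adjusted library total) in KD and 2294, 2108 and 2050 CPM in parent, so the sums of the groups overlapped. Levels below are CPM in the order KD replicates 1 and 2, then parent replicates 1, 2 and 3, and mean ± SD has n = 2 for KD and n = 3 for parent.

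**Figure D1:**
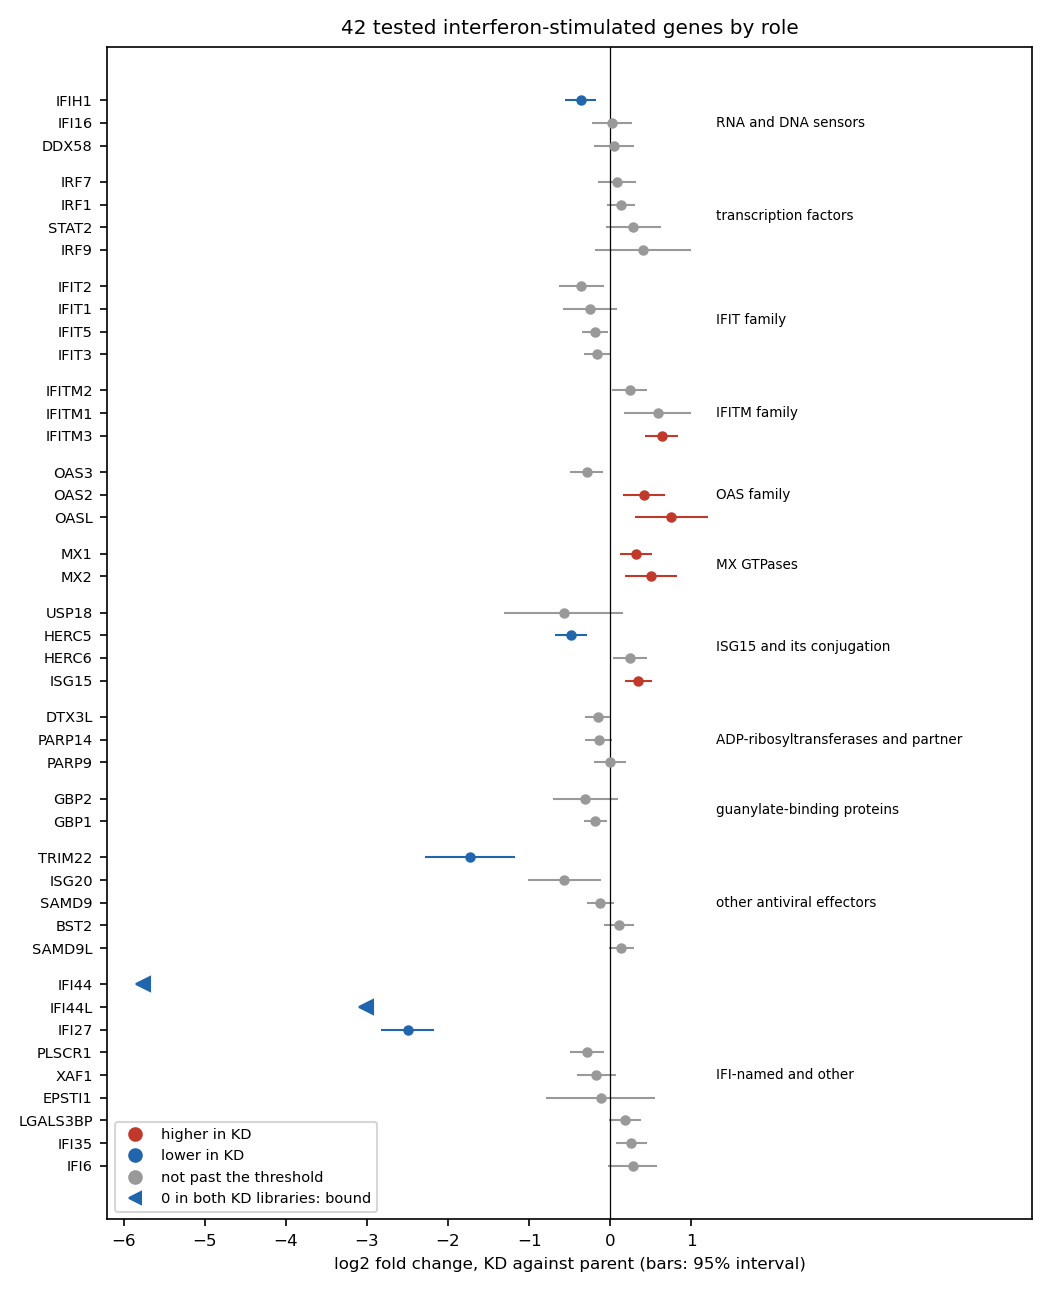
Log2 fold change of KD against parent (x axis) for the 42 tested genes, grouped by role, with 95% intervals as bars. Red and blue points passed an adjusted p of 0.05 and grey points did not. Triangles mark IFI44 and IFI44L, at 0 in KD, at the bound that 3 counts over the group set. IFI44, IFI44L, IFI27 and TRIM22 lie further from 0 than the 6 rises, which are between 0.32 and 0.75, and the falls of HERC5 and IFIH1, at -0.49 and -0.36, are within the size of the rises.

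Fewer of the rises than of the falls kept their calls when a setting was changed. IFI27, IFI44, TRIM22 and, among the rises, IFITM3 alone kept their calls under all 10 alternative settings. IFI44L kept its call in the 8 of 10 in which it was tested, being left untested without parent replicate 1 or 2. DESeq2 called 1 of the set higher, IFITM3, and 5 lower. The authors' deposited table has the same totals, 1 and 5 of 43 genes with an adjusted p, where 4.93% and 8.66% of all its genes were called higher and lower. The edgeR count of rises was 2 without KD replicate 1, 1 without KD replicate 2, 2 without parent replicate 2, 2 without parent replicate 3, and 2 when genes with low counts were kept.

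The interferon response element was found ahead of genes that fell and genes that rose alike. RefSeq promoter windows (GRCh38.p14, 250 bases before to 50 after the start site) were found for 36 of the 45 genes. A form of that element, TTTC and TTTC parted by any 2 bases, searched on both strands (GAAA and GAAA on the other), was in a window of 25 of the 36 (69.4%), against 4.38% of all 27305 genes with a window. All 5 genes that fell and have a window held it, as did all 3 that rose and have one. TRIM22, OAS2, OASL and MX2 are without a window in the table used. The gamma-activated site letters TTCNNNGAA were in 11 of the 36, 1 among the falls (IFI27) and 1 among the rises (MX1), against 9.38% of all genes. A G-quadruplex pattern, 4 runs of GGG with 1 to 7 bases between runs on either strand, was in 7 of the 36 (19.4%), against 27.9% of all genes. IFI27 held it among the falls, and MX1 and ISG15 among the rises. A match is a string of letters and not evidence of binding. The stretches that follow hold the first motif in the 8 genes that passed the test and have a window, read 5′ to 3′ on the gene's strand with the motif letters in capitals, and are shown so that both directions can be set side by side. The same 60 bases of IFI44L stand in its window once more, at chr1:78620259-78620318. IFI44 is from chr1:78649746-78649788 (plus strand), IFI44L from chr1:78620350-78620409 (plus), IFI27 from chr14:94110603-94110662 (plus), HERC5 from chr4:88456969-88457028 (plus) and IFIH1 from chr2:162318809-162318868 (minus). Of the genes that rose, IFITM3 is from chr11:320878-320937 (minus), ISG15 from chr1:1013359-1013418 (plus) and MX1 from chr21:41431829-41431888 (plus), ahead of a later start site of MX1.
IFI44: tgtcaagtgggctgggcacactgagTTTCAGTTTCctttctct
IFI44L: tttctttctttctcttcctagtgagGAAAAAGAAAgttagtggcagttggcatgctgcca
IFI27: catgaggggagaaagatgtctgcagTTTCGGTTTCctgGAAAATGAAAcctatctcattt
HERC5: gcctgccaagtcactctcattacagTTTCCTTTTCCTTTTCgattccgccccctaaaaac
IFIH1: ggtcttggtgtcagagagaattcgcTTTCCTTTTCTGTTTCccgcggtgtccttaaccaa
IFITM3: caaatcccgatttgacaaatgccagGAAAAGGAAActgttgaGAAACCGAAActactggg
ISG15: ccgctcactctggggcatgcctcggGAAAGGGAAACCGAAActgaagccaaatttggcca
MX1: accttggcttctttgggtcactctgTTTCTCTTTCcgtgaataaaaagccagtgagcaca

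Among the 3 sensors, IFIH1 fell. IFIH1 (ENSG00000115267) encodes MDA5, a sensor of long double-stranded RNA. Its level was 14.8 and 14.4 CPM in KD against 18.5, 19.4 and 18.3 CPM in parent. Both KD libraries lay below every parent library, at 14.6 ± 0.286 against 18.8 ± 0.570 CPM. The log2 fold change was -0.36 ± 0.0817 (SE, edgeR adjusted p = 0.0212). The call was lost without KD replicate 1 (edgeR adjusted p = 0.0919), KD replicate 2 (0.103) or parent replicate 2 (0.0833), and with DESeq2 (0.135), within a range of 0.0202 to 0.135. DDX58, which encodes the RNA sensor RIG-I, was at 43.5 ± 6.02 CPM in KD against 42.0 ± 3.06 CPM in parent. IFI16, a DNA sensor, was at 109 ± 11.6 and 107 ± 11.6 CPM. The groups overlapped in both genes, and the 95% intervals of their log2 fold changes were -0.20 to 0.30 and -0.23 to 0.27.

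None of the 4 transcription factors passed the test. STAT2 and IRF9, partners in the type I response, had log2 fold changes of 0.28 (95% interval -0.06 to 0.62) and 0.40 (-0.18 to 0.99). IRF9 differed between the KD libraries themselves, at 15.5 and 9.74 CPM, against 9.84, 7.24 and 11.4 CPM in parent. STAT2 passed without parent replicate 1 (edgeR adjusted p = 0.0385, within a range of 0.0385 to 0.671). IRF1, an early factor of the interferon-gamma response, was at 66.6 ± 1.24 CPM in KD against 60.8 ± 3.75 CPM in parent (edgeR adjusted p = 0.251). IRF7, which amplifies type I interferon production, was at 18.2 ± 1.16 and 17.3 ± 1.33 CPM (edgeR adjusted p = 0.623).

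The 3 IFITM genes, which encode small membrane proteins that hinder virus entry, all had higher levels in both KD libraries than in any parent library, and IFITM3 passed the test. Of all tested genes 25.3% lay above parent in this way. IFITM3 (ENSG00000142089) was at 494 and 430 CPM in KD against 325, 294 and 275 CPM in parent. KD was 1.55-fold higher at 462 ± 44.9 against 298 ± 24.99 CPM (log2 fold change 0.63 ± 0.0867 SE, edgeR adjusted p = 0.00320). IFITM1 had 8.94 and 13.1 CPM in KD against 7.67, 7.38 and 7.10 CPM in parent. Its KD libraries differed from each other by more than the parent libraries did (edgeR adjusted p = 0.0552). It passed without KD replicate 1 (edgeR adjusted p = 0.0157) and when scaled by library totals (0.0487), with all alternatives between 0.0157 and 0.277. IFITM2 was at 88.7 ± 10.8 and 75.1 ± 4.74 CPM (edgeR adjusted p = 0.116). The ratio of IFITM3 to IFITM2 counts within a library was 5.13 and 5.31 in KD and 4.06, 3.94 and 3.90 in parent. These genes are close copies of each other, so the division of reads among them is uncertain.

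The 4 IFIT genes, which bind viral RNA, all had log2 fold changes below 0, from -0.36 in IFIT2 to -0.16 in IFIT3, and none passed the test. IFIT2, IFIT3 and IFIT5 were lower in both KD libraries than in every parent library, as were 26.1% of all tested genes, and IFIT1 overlapped. IFIT2 had 12.4 and 10.8 CPM in KD against 16.3, 14.0 and 14.3 CPM in parent (edgeR adjusted p = 0.0730). The summed level of the family was 83.9 and 76.9 CPM in KD against 97.1, 92.4 and 90.5 CPM in parent. The IFIT and IFITM families, both textbook interferon targets, thus lay on opposite sides of 0 in the same libraries, although only IFITM3 among them passed the test.

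The OAS family, enzymes that make 2-5A to activate RNase L, differed among themselves, with OASL and OAS2 past the threshold upward and OAS3 below parent without passing. OASL (ENSG00000135114), a relative without that activity, was at 6.98 and 5.70 CPM in KD against 4.47, 3.28 and 3.52 CPM in parent. It was 1.69-fold higher, the highest fold among the 6 rises (log2 fold change 0.75 ± 0.190 SE, edgeR adjusted p = 0.0325). OAS2 (ENSG00000111335) was at 17.0 and 15.2 CPM in KD against 11.9, 13.1 and 11.2 CPM in parent. The means were 16.1 ± 1.28 against 12.1 ± 0.919 CPM, 1.34-fold higher in KD (log2 fold change 0.42 ± 0.108 SE, edgeR adjusted p = 0.0346). OAS3 was at 50.8 and 56.7 CPM in KD against 61.3, 66.1 and 69.7 CPM in parent, with KD below parent throughout. It did not pass (edgeR adjusted p = 0.0514), but did so with DESeq2 size factors (0.0491), a replicate block (0.0482) or without parent replicate 1 (0.0314). OAS1 was listed at 0 in both KD libraries and at 6, 4 and 10 counts in parent, too few to be tested. Against 3 counts over the KD group, and with the parent mean taken as exact, OAS1 was at least 4.10-fold lower. The OAS2 to OAS3 ratio of counts was 0.335 and 0.268 in KD and 0.194, 0.197 and 0.161 in parent. With 2 against 3 libraries an exact two-sided permutation test cannot go below p = 0.2, which was its value. The OAS2 call was lost under 8 of the 10 alternatives, among them leaving out any 1 of the 5 libraries (edgeR adjusted p = 0.0562 to 0.196 there), and that of OASL under 6, without KD replicate 1 (0.180) or 2 (0.0609), parent replicate 2 (0.101) or 3 (0.0868), with low genes kept (0.0560) and with DESeq2 (0.138).

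Both MX genes, GTPases that trap viral nucleocapsids, rose. MX1 (ENSG00000157601) was at 50.9 and 48.6 CPM in KD against 43.6, 37.9 and 38.2 CPM in parent. It was 1.25-fold higher (log2 fold change 0.32 ± 0.0820 SE, edgeR adjusted p = 0.0351). MX2 (ENSG00000183486) was at 15.5 and 13.7 CPM in KD against 11.6, 10.3 and 8.94 CPM in parent. It was 1.42-fold higher (log2 fold change 0.51 ± 0.135 SE, edgeR adjusted p = 0.0389). Each group was apart from the other in both genes. Both calls were lost under 6 of 10 alternatives: without KD replicate 1 (0.165 for MX1 and 0.198 for MX2), KD replicate 2 (0.102 and 0.0757), parent replicate 2 (0.114 and 0.110) or parent replicate 3 (0.0874 and 0.0812), with low genes kept (0.0590 and 0.0688) and with DESeq2 (0.0730 and 0.128).

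ISG15, a ubiquitin-like protein, rose while HERC5, the ligase that attaches it to proteins in human cells, fell. ISG15 (ENSG00000187608) was at 32.3 and 31.3 CPM in KD against 23.4, 25.9 and 25.8 CPM in parent. It was 1.27-fold higher (log2 fold change 0.35 ± 0.0707 SE, edgeR adjusted p = 0.0151), with the call lost without KD replicate 1 (0.108) or KD replicate 2 (0.0775) and with DESeq2 (0.0881), within 0.0142 to 0.108. HERC5 (ENSG00000138646) was at 30.5 and 30.8 CPM in KD against 45.5, 44.5 and 39.1 CPM in parent. It was 1.40-fold lower (log2 fold change -0.49 ± 0.0833 SE, edgeR adjusted p = 0.00757), with the call lost without KD replicate 1 (0.0520, within 0.00141 to 0.0520). HERC6, next to HERC5 on the chromosome, had 16.1 and 15.9 CPM in KD against 13.0, 13.5 and 14.0 CPM in parent, higher in both KD libraries (edgeR adjusted p = 0.0954). The HERC5 to HERC6 ratio of counts was 1.90 and 1.94 in KD and 3.51, 3.29 and 2.79 in parent. The groups had to be apart, since HERC5 lay below and HERC6 above parent in both KD libraries. The exact two-sided permutation p of 0.2 is the smallest that the test used here gives for 2 against 3 libraries. USP18, the protease that removes ISG15 and restrains the receptor, had only 17 to 38 counts per library and a wide interval, -1.31 to 0.16.

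**Figure D2:**
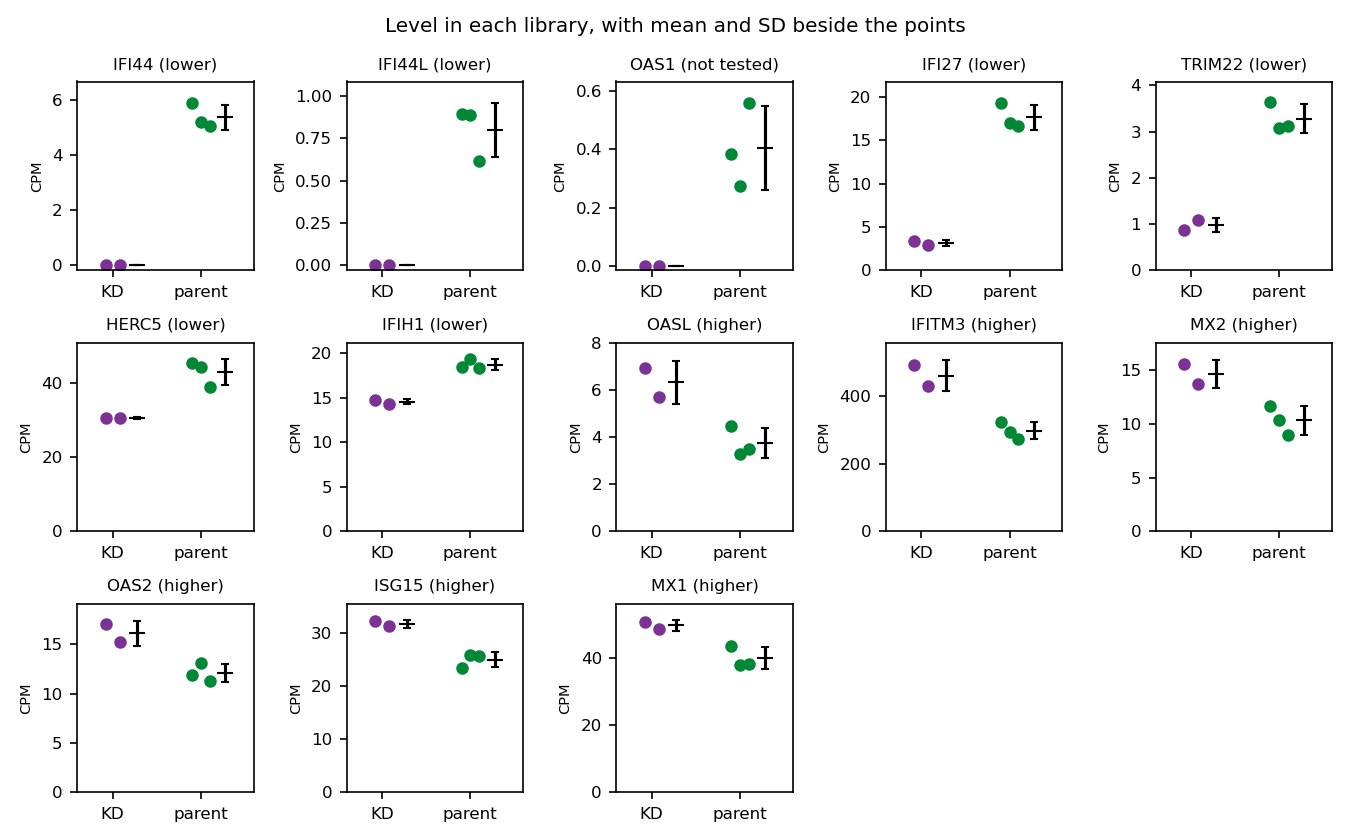
Level in CPM (y axis, from 0 and scaled for each gene) of the 12 genes past the threshold and of OAS1, with a point for each library (2 KD, 3 parent) and the mean and SD beside the points. In every panel the KD points lie wholly above or wholly below the parent points, and IFI44, IFI44L and OAS1 are at 0 in KD.

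The largest changes were in genes with IFI names. IFI44 (ENSG00000137965), a cytoplasmic protein of the antiviral response, was listed at 0 in both KD libraries and at 5.88, 5.19 and 5.03 CPM in parent (92, 76 and 90 counts). It was at least 54.3-fold lower against 3 counts over the KD group (edgeR adjusted p = 0.000185). IFI44L, its paralog and neighbour, was listed at 0 in KD and at 14, 13 and 11 counts in parent, at least 8.09-fold lower (edgeR adjusted p = 0.00613). These bounds cover counting error in the KD libraries only and take the parent mean as exact. Zeros in this table need care, since all 37 mitochondrial-genome symbols are listed at 0 in each library. IFI44 and IFI44L differ from those symbols in having counts in parent. IFI27 (ENSG00000165949), a mitochondrial and nuclear membrane protein, was at 3.39 and 2.88 CPM in KD against 19.4, 17.0 and 16.7 CPM in parent. It was 5.64-fold lower at 3.14 ± 0.355 against 17.7 ± 1.45 CPM (log2 fold change -2.50 ± 0.137 SE, edgeR adjusted p = 8.8e-05). IFI6, a mitochondrial protein of the same FAM14 family as IFI27, was at 15.8 and 14.9 CPM in KD against 14.2, 12.9 and 10.9 CPM in parent, on the other side of 0 (edgeR adjusted p = 0.176).

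TRIM22 (ENSG00000132274), a ubiquitin ligase that restricts retroviruses, was the other large fall. It was at 0.880 and 1.09 CPM in KD against 3.64, 3.07 and 3.13 CPM in parent, from 13 and 17 against 57, 45 and 56 counts. It was 3.31-fold lower (log2 fold change -1.73 ± 0.233 SE, edgeR adjusted p = 0.00298). The other antiviral effectors did not pass. ISG20, an exonuclease that degrades viral RNA, had 1.90 and 2.05 CPM in KD against 3.00, 2.87 and 2.91 CPM in parent (edgeR adjusted p = 0.0780). BST2 (tetherin), which holds budding virus at the cell surface, was at 190 ± 15.6 and 177 ± 12.8 CPM. The neighbours SAMD9 and SAMD9L had log2 fold changes of -0.12 and 0.13. RSAD2 (viperin) and CMPK2, which lie side by side and are strongly induced by interferon, were listed at 0 in all 5 libraries, where 3 counts would be 0.168 to 0.205 CPM. The caution on zeros given above applies to them and to other genes at 0 in every library.

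None of the remaining genes passed the test. PARP9, PARP14 and DTX3L, which work together in ADP-ribosylation and ubiquitination, had log2 fold changes of -0.01, -0.14 and -0.16. The guanylate-binding GTPases GBP1 and GBP2 had -0.18 and -0.31 (edgeR adjusted p = 0.0677 and 0.251). LGALS3BP, a secreted glycoprotein, was at 529 ± 46.9 and 466 ± 37.6 CPM (edgeR adjusted p = 0.171). IFI35, XAF1, EPSTI1 and PLSCR1 lay between -0.29 and 0.26. Of the 30 tested genes that did not pass, 28 had a 95% interval within a 2-fold change either way, the exceptions being USP18 and ISG20. The spread between the KD libraries was widest in EPSTI1 and IRF9, with absolute log2 ratios of 0.70 and 0.67, and their median over the 40 genes with counts was 0.16.

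Several genes beside IFI44L and IFI44 were low in KD as well. In RefSeq gene order, used here for order only, PTGFR (a prostaglandin receptor), IFI44L, IFI44, ELTD1 and LPHN2 (both adhesion receptors) follow each other. PTGFR had 0 and 0 counts in KD against 10, 18 and 16 in parent, and LPHN2 had 0 and 0 against 43, 46 and 38, both past the threshold (edgeR adjusted p = 0.00711 and 0.000896). ELTD1 was at 0 in all libraries. Further out, DNAJB4 and FUBP1 on the side of PTGFR had log2 fold changes of 0.00376 and -0.03, and TTLL7 on the other side was lower at -0.88 (edgeR adjusted p = 0.00113). PRKACB, the gene after TTLL7, had -0.0016 and did not pass. In the guanylate-binding cluster the order is GBP3, GBP1, GBP2, GBP7, GBP4, GBP5, GBP6, LRRC8B and LRRC8C. GBP4 had 4 and 0 counts in KD against 219, 221 and 196, and GBP5 had 0 and 0 against 100, 75 and 71, while GBP1 kept 1000 and 1055 against 1242, 1116 and 1346. LRRC8B and LRRC8C, volume-regulated channel subunits beyond GBP6, had log2 fold changes of -4.30 and -2.17 (edgeR adjusted p = 0.000164 and 0.00012). On the side of GBP3, RBMXL1 and GTF2B were lower at -0.46 and -0.34 (edgeR adjusted p = 0.0026 and 0.042), and CCBL2 and PKN2 did not pass. Around IFI27, its relatives IFI27L1 and IFI27L2 on either side had -0.01 and -0.11 and did not pass, and PPP4R4, the next gene after IFI27L2, was lower at -0.56 (edgeR adjusted p = 0.0297). Beside TRIM22, TRIM6 was lower at -1.63 (edgeR adjusted p = 0.000343), and TRIM34 and TRIM5 had -0.60 and -0.22 and did not pass. TRIM6 and TRIM34 share a read-through gene, so their counts are uncertain. The neighbours were chosen for their place and looked at after the falls were known, and the part of any local change in these results was not tested.

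**Figure D3:**
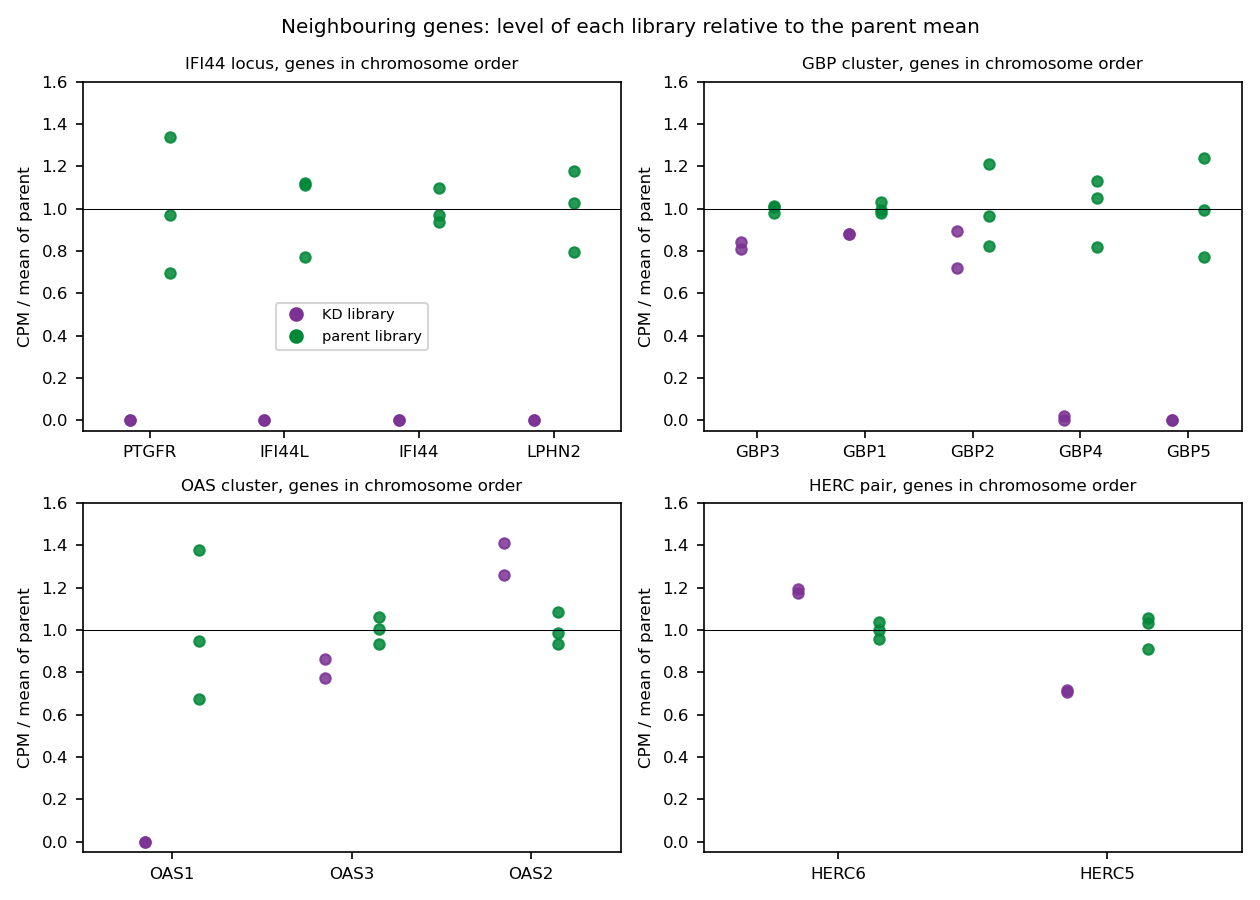
CPM of each library divided by the parent mean of that gene (y axis), for chosen genes of 4 neighbourhoods, in chromosome order. Other genes with counts there, among them DNAJB4, FUBP1, TTLL7 and LRRC8B, are not drawn. KD libraries (purple) are at 0 in PTGFR, IFI44L, IFI44 and LPHN2 and at or near 0 in GBP4 and GBP5, whereas GBP1, GBP2 and GBP3 are nearer to 1 than to 0. OAS2 and OAS3, and HERC5 and HERC6, lie on opposite sides of 1.

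Upstream of the set, all 21 interferon ligand genes in the table were listed at 0 in each library. Of 10 genes for receptors and JAK-STAT, 3 rose and 0 fell, with a median log2 fold change of 0.08. Over all tested genes 9.15% rose and 12.4% fell, which is the background for each list here. IFNGR1, the ligand-binding chain of the interferon-gamma receptor, averaged 72.7 ± 8.37 CPM in KD against 46.5 ± 2.04 CPM, 1.57-fold higher (edgeR adjusted p = 0.00307). IFNAR2 and IL10RB, chains of the type I and type III receptors, had log2 fold changes of 0.30 and 0.37 (edgeR adjusted p = 0.0216 and 0.0351). Of 18 genes tied to interferon production, not all of which promote it, 2 (11.1%) rose and 4 (22.2%) fell (median 0.10). The Toll-like receptors TLR4 and TLR3 fell, TLR4 from 221, 166 and 192 counts in parent to 4 and 0 in KD, and TLR3 by 0.87 on the log2 scale. MAVS, the mitochondrial adaptor of MDA5 and RIG-I, rose by 0.36 (edgeR adjusted p = 0.0144), and the ligase TRIM25 fell by 0.25 (edgeR adjusted p = 0.0149). Of 12 negative regulators, 3 (25%) rose and 2 (16.7%) fell (median 0.03). The phosphatase PTPN1 rose by 0.61 and the corepressor IRF2BP1 by 0.50 on the log2 scale. The feedback inhibitors SOCS2 and SOCS3 fell by 1.53 and 0.33.

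Downstream, a further list of interferon-stimulated genes also held rises and falls. Of 51 tested, 6 (11.8%) rose and 11 (21.6%) fell, beside 9.15% and 12.4% of all tested genes. The median log2 fold change was -0.05 beside 0.00085 over all genes. GBP5, at least 52.2-fold lower, and GBP4 were the largest falls. LY6E, a surface protein, averaged 284 ± 21.6 CPM in KD against 181 ± 10.6 CPM, 1.57-fold higher (edgeR adjusted p = 0.00111), and APOL6 was higher by 0.39 on the log2 scale. The chemokine gene CXCL10, a common interferon readout, was listed at 0 in every library. Of 17 class I antigen presentation genes, which interferons also raise, 2 (11.8%) fell and 0 rose (median 0.01). These were the peptide-trimming enzymes ERAP1 and ERAP2, 1.68-fold and 1.61-fold lower. The lists were written with earlier results of these data known, and no test was made of a list. Over the 6 lists 14 genes rose and 19 fell. The count of rises was 7 without KD replicate 1, 9 without KD replicate 2, 7 without parent replicate 2, 9 without parent replicate 3, and 8 when low genes were kept. The count of falls was 10 without KD replicate 1 and 11 without KD replicate 2.

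**Figure D4:**
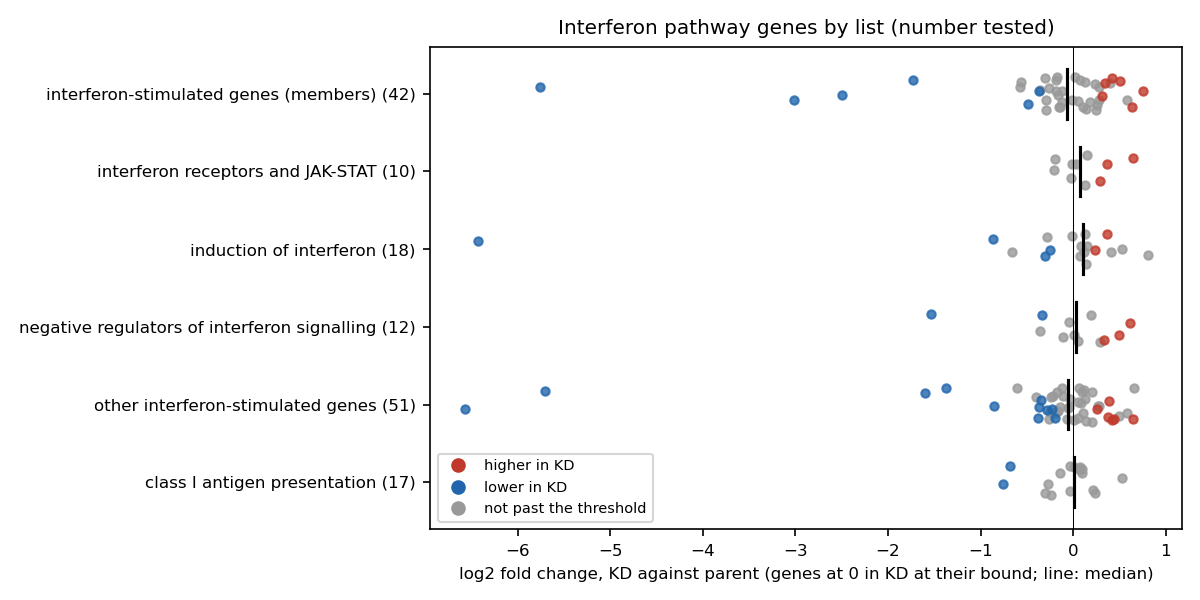
Log2 fold change of KD against parent (x axis) for the 42 tested members and the 5 lists of other pathway genes with tested members, a point for each gene and a black line at the median. Red and blue points passed an adjusted p of 0.05. Medians lie near 0 in each list, and the points far to the left are IFI44, IFI44L and IFI27 among the members and TLR4, GBP4 and GBP5 elsewhere.

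The 5 markers expected in the line were present in both groups, from CAV1 at 384 and 416 CPM to VIM at 2149 CPM in KD and CD44 at 2527 CPM in parent. Of these, CD44, AXL and MSN were lower in KD, at -0.34, -0.32 and -0.20 on the log2 scale (edgeR adjusted p = 0.00951, 0.0296 and 0.0318). Of 5 markers expected absent or low, ESR1 was at 0, PGR had no more than 2 counts in a library, and EPCAM was at 9.71 and 12.3 CPM. ERBB2 was at 161 and 133 CPM and CDH1 at 7.70 and 3.51 CPM, both higher in KD (edgeR adjusted p = 0.0426 and 0.00587). Of 6 leukocyte genes, PTPRC and CD3E were listed at 0 in all libraries. CD68 took most of the list's level, at 129 and 104 CPM, and did not pass (edgeR adjusted p = 0.0612), while CD14 was lower, at 5.12 and 8.42 CPM (edgeR adjusted p = 0.0391). The summed level of the list was 133 to 136 CPM in KD against 140 to 158 CPM in parent. HLA-DRA, a class II gene in that list that interferon-gamma also raises, had 5 and 3 counts in KD against 615, 514 and 586 in parent. Among fibroblast genes PDGFRB had 1052 and 939 counts in KD against 711, 547 and 566. DCN and FAP were listed at 0, and PDGFRA and LUM had no more than 3 and 7 counts in a library. The list's summed level was 60.3 to 71.6 CPM in KD against 32.2 to 45.6 CPM in parent. PDGFRB made up nearly all of it, 65.7 of a mean of 65.9 CPM in KD and 38.1 of 38.5 CPM in parent. Of the endothelial genes, KDR had 0 and 0 counts in KD against 71, 64 and 68 in parent. CDH5 had 6 and 6 counts in KD against 8, 0 and 0, too few to be tested. The part of these markers in the results was not tested. In bulk RNA, fewer cells expressing a gene and less RNA per cell cannot be told apart. The KD label and any other difference between the 2 cell populations, such as clonal origin, cannot be told apart either.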

How the data were processed

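RNA from 2 KD and 3 parent samples of MDA-MB-231 was sequenced. Titles gave the groups and replicate numbers; 2 chromatin immunoprecipitation samples are left out. Nothing in the labels tells whether replicates are separate cultures, so a p-value measures only the spread between the samples, possibly technical. The authors deposited whole-number expected counts per gene. STAR, DESeq2 and the build hg19 are named in the submitters' processing notes, without versions. Counting tool, annotation and strandedness were not given in the sources used. The authors' deposited comparison table holds, per the file headers, a mean normalised signal, log2 fold changes, a test score and p-values; its signs were read as KD minus parent from APEX1.

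Counts were filtered with filterByExpr (minimum count 10, minimum total 15), scaled with TMM and compared with the edgeR 4.0.16 quasi-likelihood test in R 4.3.3 (group as sole term, 3 residual degrees of freedom). P-values were adjusted by Benjamini-Hochberg over all genes tested, with a threshold of 0.05. The standard error is the log2 fold change divided by the root of F, and 95% intervals use it. Where a symbol had several rows, the row whose identifier carries it in the name table was used. Alternatives were DESeq2 1.42.0 (its Wald test and its size factors), library totals alone, no filter, a replicate block, and leaving out each library. On simulated counts for KD against parent over 15890 genes, 52.2% of 1.5-fold, 73.1% of 2-fold and 100% of 4-fold changes were recovered, and 9.64% of calls were false. The simulation changed 67, 67 and 66 genes at these folds, all drawn from genes above a minimum mean count. In the data 21.5% of tested genes were called, so these rates need not hold there or for low genes. Members and lists were chosen with earlier results of these data known. All 45 members may be named; those past the threshold or at 0 in a group are given by library, and of other lists up to 4 genes past the threshold, smallest adjusted p first. Neighbouring genes, CXCL10 and other named genes outside this rule were chosen after their values were seen.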

Additional observations from a re-analysis of the deposited data

How the results depend on the processing

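With DESeq2's test, 982 genes were called higher, 1 of the 45 was called higher and the median log2 fold change of the set was -0.13. With no filter on low counts, 2 of the set and 8 genes of the pathway lists were called higher, and the median of the set was -0.13. Leaving out each library in turn gave 553 to 1413 higher and 1270 to 1970 lower calls over all genes, and 1 to 6 higher and 4 to 6 lower calls in the set. The same fits gave a median of -0.11 to 0.033 in the set, so its sign depends on the library left out, and 7 to 17 higher and 10 to 21 lower calls in the pathway lists. Where 1 KD library is left, it is assumed to vary like the parent libraries. The cause of these shifts was not tested.

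The titles share the numbers 1 and 2 but no label pairs the samples. Deviations from the group means correlated at 0.139 for the libraries numbered 1 and at 0.0056 for those numbered 2, across genes, which are not independent. KD replicate 2 and parent replicate 3, which share no number, correlated at 0.138, so these values cannot show a pairing. With the number as a replicate block, 7 of the set were called higher and 9 lower, with a median of -0.04, against 6, 6 and -0.06 without it. In the pathway lists the block gave 18 and 26, and over all genes 1704 and 2236. The block added GBP2 (edgeR adjusted p = 0.00499), IRF9 (0.0244), IFIT2 (0.0387), LGALS3BP (0.0470) and OAS3 (0.0482) and removed OAS2 (0.0699). APEX1 was called lower under each of the 10 alternatives, at -1.59 to -1.44.

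Depth limits the low genes: OAS1, IFI44L, USP18 and TRIM22 rest on 0 to 57 counts in a library.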
